A study of Mus musculus with 12 samples.

Results

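The Gimap genes encode GTPases of immunity-associated proteins, a family of small GTP-binding proteins that lie side by side in the genome. Members were taken by name: Gimap1, Gimap4, Gimap5, Gimap6, Gimap7, Gimap8 and Gimap9, which are 7 of the 18193 genes measured on the arrays. They are read by 10 probe sets that carry a single gene symbol, out of 45037 probe sets tested. Gimap4, Gimap6 and Gimap7 have more than 1 probe set, and for these 3 the one that was brightest on average over the 12 arrays gives the main value.

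The study set 4 mouse blood cell populations beside each other on Affymetrix expression arrays: mature CD4+ T cells (2 arrays), Pre-Megakaryocyte/Erythrocyte progenitors (PreMegE, 4 arrays), multipotent progenitors (MPP, 3 arrays) and hematopoietic stem cells (HSC, 3 arrays). All came from C57Bl/6 mice of 10 to 12 weeks with no treatment or altered gene named. CD4+ T cells were sorted from spleen as CD4+, negative for CD8, B220 and Nk1.1. The other populations were sorted from bone marrow as lineage-negative cKit+ cells: PreMegE lacked Sca1, CD105 and CD41 and carried CD150, MPP carried Sca1 and Flk2/Flt3 but not CD150, and HSC carried Sca1 and CD150 but not Flk2/Flt3. HSC and MPP were sorted for this series, whereas PreMegE and CD4+ T cell data came from 2 earlier studies, so study and population cannot be told apart in any comparison except MPP against HSC. The labels do not say whether arrays of 1 population came from separate animals, so p-values measure the spread between these arrays, which may be technical.

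GIMAP proteins sit on membranes inside lymphocytes, bind GTP through a domain shared with plant AIG1 proteins, and are known mainly for keeping T and B cells alive. Mice and rats without functional Gimap5 are short of T cells, and loss of Gimap5 in mice also disturbs hematopoietic stem cells. Stem cells and early progenitors are the source from which lymphoid cells and the megakaryocyte and erythroid line later separate, so the 4 populations cover a lymphoid cell, a progenitor of the other line, and the immature cells above both.

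The promoters of 4 members are shown because these genes stand for the 4 patterns found below: Gimap4 was far higher in T cells than in any marrow population, Gimap6 was higher in MPP than in HSC, Gimap8 had the greatest fall of the 7 in PreMegE, and Gimap9 was called in no comparison between marrow populations. The windows run from 250 bases before to 50 bases after the start site, 5' to 3' on the gene's strand, from RefSeq on GRCm38.p6. Capitals mark the ETS-type string AGGAAG and the RUNX core TGTGGT on either strand, so that they also read CTTCCT and ACCACA. The second of the 2 annotated Gimap8 windows is shown.
Gimap4, chr6:48684328-48684627, plus strand: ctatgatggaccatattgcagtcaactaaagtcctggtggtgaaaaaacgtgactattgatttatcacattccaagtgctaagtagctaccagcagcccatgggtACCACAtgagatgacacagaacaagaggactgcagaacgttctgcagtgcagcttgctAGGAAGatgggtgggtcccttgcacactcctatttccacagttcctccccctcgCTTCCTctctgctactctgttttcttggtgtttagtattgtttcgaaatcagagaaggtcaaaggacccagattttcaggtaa
Gimap6, chr6:48708195-48708494, minus strand: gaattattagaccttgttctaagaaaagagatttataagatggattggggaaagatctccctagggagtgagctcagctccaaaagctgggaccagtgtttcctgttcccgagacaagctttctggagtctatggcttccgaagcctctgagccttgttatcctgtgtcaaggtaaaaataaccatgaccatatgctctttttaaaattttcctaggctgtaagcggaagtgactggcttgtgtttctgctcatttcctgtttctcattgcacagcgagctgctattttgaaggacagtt
Gimap8, chr6:48647111-48647410, plus strand: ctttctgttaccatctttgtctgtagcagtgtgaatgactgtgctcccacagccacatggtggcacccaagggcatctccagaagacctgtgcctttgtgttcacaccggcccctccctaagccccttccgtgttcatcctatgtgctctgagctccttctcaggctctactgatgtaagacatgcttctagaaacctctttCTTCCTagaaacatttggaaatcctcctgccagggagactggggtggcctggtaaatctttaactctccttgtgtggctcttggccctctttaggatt
Gimap9, chr6:48675885-48676184, plus strand: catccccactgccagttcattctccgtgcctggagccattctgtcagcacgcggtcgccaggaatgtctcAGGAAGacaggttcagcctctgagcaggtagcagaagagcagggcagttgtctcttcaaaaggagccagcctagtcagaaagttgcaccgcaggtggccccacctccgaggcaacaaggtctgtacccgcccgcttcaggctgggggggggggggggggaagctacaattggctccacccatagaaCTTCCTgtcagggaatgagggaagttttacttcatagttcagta

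All 7 members matched this promoter table, in 8 windows of 300 bases. The ETS-type string AGGAAG was found in 6 of the 8 member windows, against 35.4% of all 32851 promoter windows. Gimap6 was the member without this exact string, and the first Gimap8 window also lacked it. Other sequences built on GGAA were not counted, such as gcggaagtg in the Gimap6 window. The RUNX core was in the windows of Gimap1, Gimap4 and Gimap7, against 16.8% of all windows. The STAT spacing TTCNNNGAA was in windows of Gimap6, Gimap7 and Gimap8, against 8.30% of all. In Gimap8 it overlaps the AGGAAG match printed above. The GATA-type string AGATAA, present in 11.2% of all windows, and the FOXO-type string GTAAACA, present in 3.65%, were in none of the 8. Other forms of the GATA site were not searched. TGATAA is such a form, and the Gimap4 window holds it as ttatca on the printed strand. The TCF/LEF core CTTTGA was in Gimap4 and Gimap7 (16% of all windows), the KLF/SP core CCGCCC in Gimap7 and Gimap9 (35.7%), the E-box CAGGTG in Gimap9 (20.2%) and TATAAA in Gimap6 (13.6%). Both strands were searched for each. GC content of the member windows lay between 43.3% and 57.3%, and 6 of the 8 were below the median of all windows, 52.7%. These are exact matches of letters within the windows only, so a window without a match can hold another form of the site.

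The deposited values are linear intensities, and all levels below are log2 of them. A probe set's level is not comparable with another probe set's, so each gene is compared with itself across populations. Differences are the first-named population minus the second, with the standard error (SE) of the limma fit, and a gene was called changed at an adjusted p under 0.05 over all 18193 genes. These arrays have no detection call here; as a guide to what is low, the lower quartile over all genes was 3.27 in CD4+ T cells, 3.32 in PreMegE, 3.28 in MPP and 3.35 in HSC, and the median gene was at 4.69 in CD4+ T cells, 4.77 in PreMegE, 4.94 in MPP and 4.99 in HSC.

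Over 13 measured T cell markers, the summed intensity was 17676.7 and 18044.2 on the CD4+ T cell arrays, against 219 to 288 in PreMegE, 283 to 322 in MPP and 272 to 349 in HSC. The T cell receptor chain Cd3g and the adhesion receptor Cd2 lay under the lower quartile on all 10 marrow arrays, and Cd3d lay between 3.08 and 3.87, while Cd3e was between 4.97 and 5.66 and Cd4 between 4.50 and 5.13 there. Of the 13, 5 had means under the lower quartile in PreMegE, 3 in MPP and 4 in HSC, and 11 were under the median gene in each. The CD4+ T cell arrays had raised levels of some B cell marker genes despite the B220-negative gate. Ms4a1, which encodes CD20, was at 6.45 and 6.76 there and at no more than 3.42 elsewhere. Cd79a was at 4.83 and 4.66 there, near the median gene, and at no more than 3.92 elsewhere. The 9 measured B cell markers summed to 395 and 461, against 115 to 148 in PreMegE, 168 to 178 in MPP and 150 to 188 in HSC. Of these 9 markers, 5 were higher and 1 lower in CD4+ T cells than in HSC. Over all genes, 17.0% were called higher and 20.8% lower there. In CD4+ T cells, 5 of the 9 had means under the median gene. Ighm, the immunoglobulin mu heavy chain gene, was at 12.28 and 12.49 on the T cell arrays, but also at 10.38, 9.94 and 10.73 in MPP. Its level was 9.35 in PreMegE replicate 1, 9.04 in HSC replicate 2, and no more than 5.04 on the other PreMegE and HSC arrays. Of 8 measured NK cell markers, 4 were higher and 1 lower in CD4+ T cells than in HSC despite the Nk1.1-negative gate, with Klrd1 at a mean of 8.44 against 3.17 in HSC and Prf1 at 6.79 against 3.58, while Ncr1 stayed at 3.45 and 3.65. The NK sum was 640 and 903 in CD4+ T cells, 607 to 715 in PreMegE, 416 to 453 in MPP and 386 to 489 in HSC. Of 8 measured macrophage and monocyte markers, 4 were higher and none lower in CD4+ T cells than in HSC, with Ly86 at 6.79 against 4.47 and Csf1r at 8.27 against 6.91. That list summed to 548 and 601 in CD4+ T cells, 114 to 156 in PreMegE, 515 to 549 in MPP and 169 to 376 in HSC. B cells also express Gimap genes; the part of B cell, NK cell and monocyte transcripts in the T cell and marrow values was not tested. HSC replicates 2 and 3 stood apart from all other arrays in sex-linked transcripts, with Xist at 2.45 and 2.59 and the Y-linked Eif2s3y at 7.46 and 8.47, against 12.0 and 2.31 in HSC replicate 1. Values against HSC replicate 1 alone are therefore given where they end a call.

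All 7 members were higher in CD4+ T cells than in each of the 3 marrow populations. This holds for 7 of 7 members against HSC, where 17.0% of all genes were called higher, 7 of 7 against MPP, where 15.5% were, and 7 of 7 against PreMegE, where 16.3% were. Of all 18193 genes, 1771 (9.73%) were called higher in T cells than in all 3. The median difference over the members was 2.56 against HSC, 3.01 against MPP and 5.27 against PreMegE, while the median over all genes was -0.06, -0.02 and -0.06 in the same comparisons. These 3 comparisons share the 2 T cell arrays. In sorted bulk populations, fewer cells expressing a gene and less RNA of it per cell cannot be told apart.

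**Figure D1:**
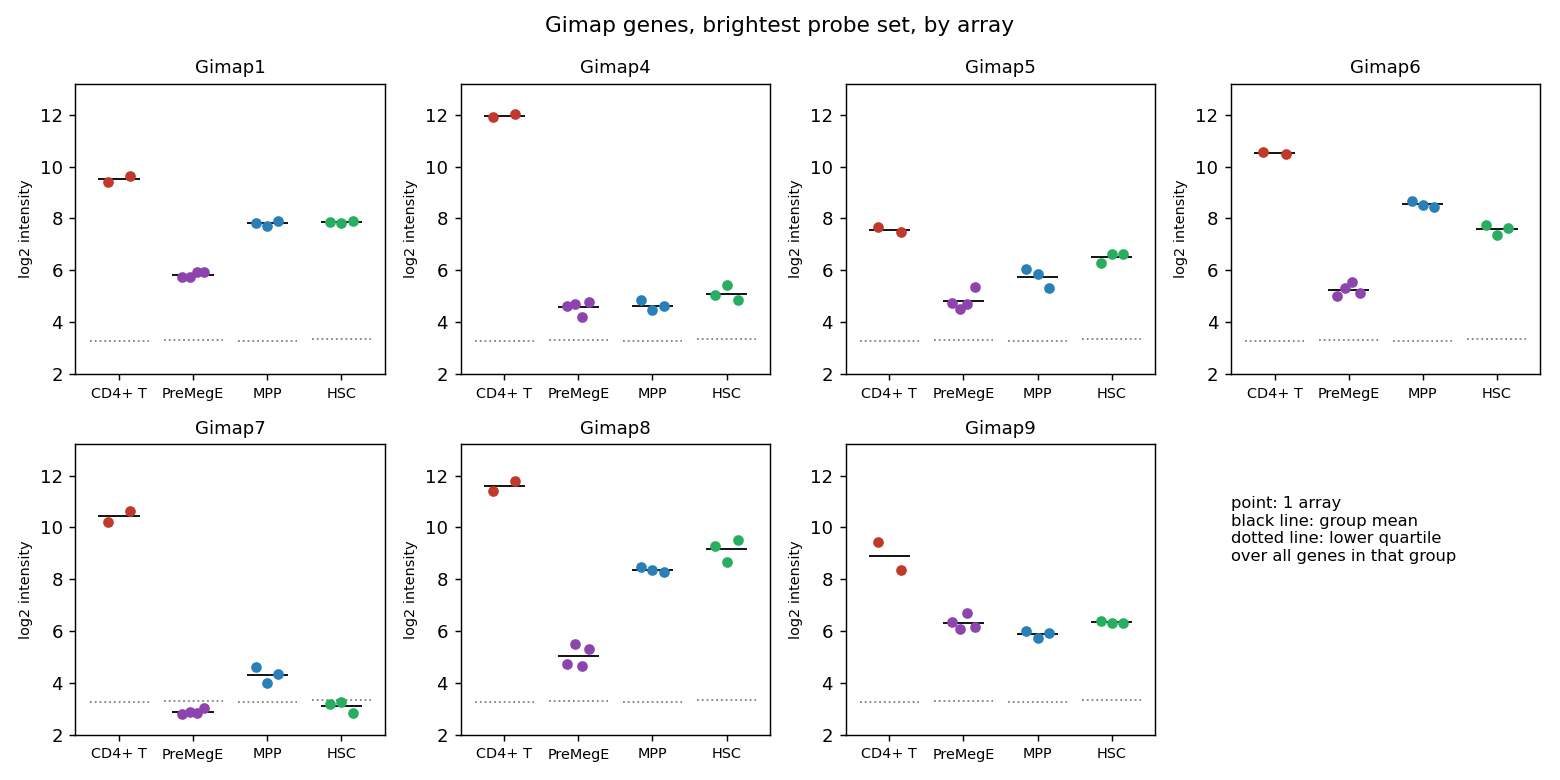
Log2 intensity of the brightest probe set of each Gimap gene on every array, with each point 1 array, bars the population means, and populations ordered CD4+ T, PreMegE, MPP and HSC. The T cell arrays lie above all marrow arrays in every panel. In Gimap1, Gimap5, Gimap6 and Gimap8 the PreMegE arrays lie below the HSC arrays. Gaps between marrow populations are smaller in Gimap4 and Gimap9. MPP and HSC overlap in Gimap1, PreMegE and MPP overlap in Gimap5, and MPP lies above both other marrow populations in Gimap7.

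Among the marrow populations the family split. Gimap1, Gimap5, Gimap6 and Gimap8 were well above the lower quartile in MPP and HSC and fell in PreMegE. Gimap7 was below the median gene in all 3 marrow populations, Gimap4 was near the median gene in all 3, and Gimap9 was called in none of the 3 comparisons between them.

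Gimap8, the longest family member, which carries several GTP-binding domains in tandem, was at 11.42 and 11.80 in CD4+ T cells, at 4.74, 5.50, 4.64 and 5.31 in PreMegE, at 8.46, 8.36 and 8.28 in MPP, and at 9.29, 8.67 and 9.51 in HSC. No array of one population overlapped another population. In PreMegE it was 17.3-fold lower than in HSC, a difference of -4.11 ± 0.23 (SE, adjusted p = 4.6e-09), which was the 28th deepest fall of the 18193 genes. It was -3.32 ± 0.23 against MPP (adjusted p = 2.2e-08). T cells exceeded HSC, the next population in order, by 2.45 ± 0.27 (adjusted p = 2.5e-06). The 2 neighbours MPP and HSC differed by -0.79 ± 0.24, with adjusted p = 0.0502 just missing the threshold.

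Gimap6, which is known to bind a GABARAP-family autophagy protein, was at 10.55 and 10.49 in CD4+ T cells, at 5.01, 5.31, 5.57 and 5.11 in PreMegE, at 8.66, 8.51 and 8.46 in MPP, and at 7.76, 7.36 and 7.62 in HSC. Its order was T cells, MPP, HSC and PreMegE, with no overlap between neighbours, and every step was called. MPP exceeded HSC by 0.96 ± 0.17 (adjusted p = 0.00125), a 1.95-fold difference. PreMegE was lower than HSC by a difference of -2.33 ± 0.16 (adjusted p = 3.5e-08) and than MPP by one of -3.29 ± 0.16 (adjusted p = 3.8e-10). T cells exceeded MPP by 1.98 ± 0.19 (adjusted p = 4.7e-07).

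Gimap1, which mature T and B cells of mice need to persist, was at 9.41 and 9.63 in CD4+ T cells, at 5.73, 5.73, 5.94 and 5.95 in PreMegE, at 7.83, 7.69 and 7.91 in MPP, and at 7.86, 7.82 and 7.92 in HSC. MPP and HSC overlapped, and their difference was -0.05 with a 95% interval of -0.35 to 0.25. PreMegE lay below both, by differences of -2.03 ± 0.13 against HSC (adjusted p = 2.4e-08) and -1.97 ± 0.13 against MPP (adjusted p = 1.5e-08). T cells exceeded HSC by 1.66 ± 0.16 (adjusted p = 4.5e-07), a 3.15-fold difference.

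Gimap5, whose loss depletes lymphocytes, was at 7.67 and 7.49 in CD4+ T cells and at 4.73, 4.50, 4.71 and 5.36 in PreMegE. It was at 6.04, 5.87 and 5.32 in MPP, and at 6.29, 6.63 and 6.62 in HSC. The HSC arrays were above all MPP arrays, while the highest PreMegE array was above the lowest MPP array. It had the smallest T cell excess of the 7 over HSC, 1.06 ± 0.25 (adjusted p = 0.00303), a 2.09-fold difference. PreMegE was lower than HSC by a difference of -1.69 ± 0.21 (adjusted p = 1.9e-05) and than MPP by one of -0.92 ± 0.21 (adjusted p = 0.00291). MPP was lower than HSC by a difference of -0.77 ± 0.23 (adjusted p = 0.0381).

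Gimap7, whose human counterpart forms dimers that speed GTP hydrolysis, was at 10.22 and 10.62 in CD4+ T cells, at 2.81, 2.88, 2.85 and 3.05 in PreMegE, at 4.60, 3.99 and 4.33 in MPP, and at 3.18, 3.27 and 2.84 in HSC. Of the marrow populations only MPP was above the lower quartile, with no overlap with HSC or PreMegE, whose arrays overlapped each other. MPP exceeded HSC by 1.21 ± 0.18 (adjusted p = 3.6e-04), and PreMegE was lower than MPP by a difference of -1.41 ± 0.17 (adjusted p = 9.5e-06). T cells exceeded MPP by 6.11 ± 0.20 (adjusted p = 3.6e-12), a 69.1-fold difference. PreMegE and HSC, both with means under the lower quartile, differed by -0.20 with a 95% interval of -0.56 to 0.16.

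Gimap4, which in rodents bears on how fast dying T cells complete apoptosis, was at 11.90 and 12.02 in CD4+ T cells, at 4.64, 4.69, 4.21 and 4.79 in PreMegE, at 4.84, 4.46 and 4.62 in MPP, and at 5.03, 5.42 and 4.84 in HSC. The T cell arrays stood far above the rest, whose ranges met or overlapped apart from a narrow gap between PreMegE and HSC. T cells exceeded HSC by 6.86 ± 0.21 (adjusted p = 1.3e-12), a 116-fold difference, and MPP by 7.32 ± 0.21 (adjusted p = 9.2e-13). PreMegE was lower than HSC by a difference of -0.52 ± 0.18 (adjusted p = 0.0394). PreMegE and MPP differed by -0.06 with a 95% interval of -0.44 to 0.32, and MPP and HSC by -0.46 (adjusted p = 0.153).

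Gimap9 was at 9.44 and 8.35 in CD4+ T cells, at 6.35, 6.09, 6.68 and 6.18 in PreMegE, at 6.01, 5.74 and 5.92 in MPP, and at 6.39, 6.31 and 6.32 in HSC. It had the widest gap between the 2 T cell arrays of any member's main probe set, and both were above every marrow array. T cells exceeded HSC by 2.56 ± 0.26 (adjusted p = 8.2e-07), MPP by 3.01 ± 0.26 (adjusted p = 1.4e-07) and PreMegE by 2.57 ± 0.24 (adjusted p = 4.3e-07). Every MPP array lay below every PreMegE and HSC array, and PreMegE and HSC overlapped. None of the 3 marrow pairs was called: PreMegE and HSC differed by -0.02 with a 95% interval of -0.47 to 0.44, PreMegE and MPP by 0.44 (adjusted p = 0.143), and MPP and HSC by -0.45 (adjusted p = 0.268).

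In PreMegE against HSC, 5 of 7 members were lower and none was higher, where 17.0% of all genes were called lower and 11.9% higher. In PreMegE against MPP, 5 of 7 were lower and none was higher, where 19.5% were called lower and 13.5% higher. Gimap1, Gimap5, Gimap6 and Gimap8 were lower in both; Gimap4 was lower against HSC and Gimap7 against MPP. The median difference over the 7 was -1.69 against HSC and -1.41 against MPP, while the medians over all genes were -0.01 and 0.02. The 2 comparisons share the PreMegE arrays. The fall of Gimap4 against HSC is not firm: against HSC replicate 1 alone it was -0.45 (adjusted p = 0.253), and without HSC replicate 2 it was -0.35 (adjusted p = 0.197). It also lost its call without HSC replicate 1, MPP replicate 3 or PreMegE replicate 1, 2 or 3, with adjusted p between 0.0523 and 0.0965.

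In MPP against HSC, the comparison within 1 study, 2 of 7 members were higher, where 6.38% of all genes were called higher, and 1 of 7 was lower, where 4.93% were. Gimap6 and Gimap7 rose, Gimap5 fell, and the other 4 were not called. The signs therefore differ within the family: differences ran between -0.79 for Gimap8 and 1.21 for Gimap7, with a median of -0.45 against -0.03 over all genes. HSC was under the lower quartile for Gimap7. With intensities floored at 16 the Gimap7 difference was 0.31 (adjusted p = 0.289) and no longer called. On its other probe set it was -0.09 and not called. Neither the size of 1.21 nor the call of Gimap7 is therefore firm. Against HSC replicate 1 alone, with that lone array assumed to vary like the other populations, Gimap7 was called at 1.13 (adjusted p = 0.0227), Gimap6 was 0.78 (adjusted p = 0.0914) and Gimap5 was -0.55 (adjusted p = 0.519). Gimap5 also lost its call without HSC replicate 2, HSC replicate 3, MPP replicate 2 or MPP replicate 3, with adjusted p between 0.0698 and 0.204. Gimap8 gained one without HSC replicate 2, at -1.03 (adjusted p = 0.0152), and without PreMegE replicate 1, 2 or 3 or either T cell array, at -0.79 with adjusted p between 0.0354 and 0.0489.

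**Figure D2:**
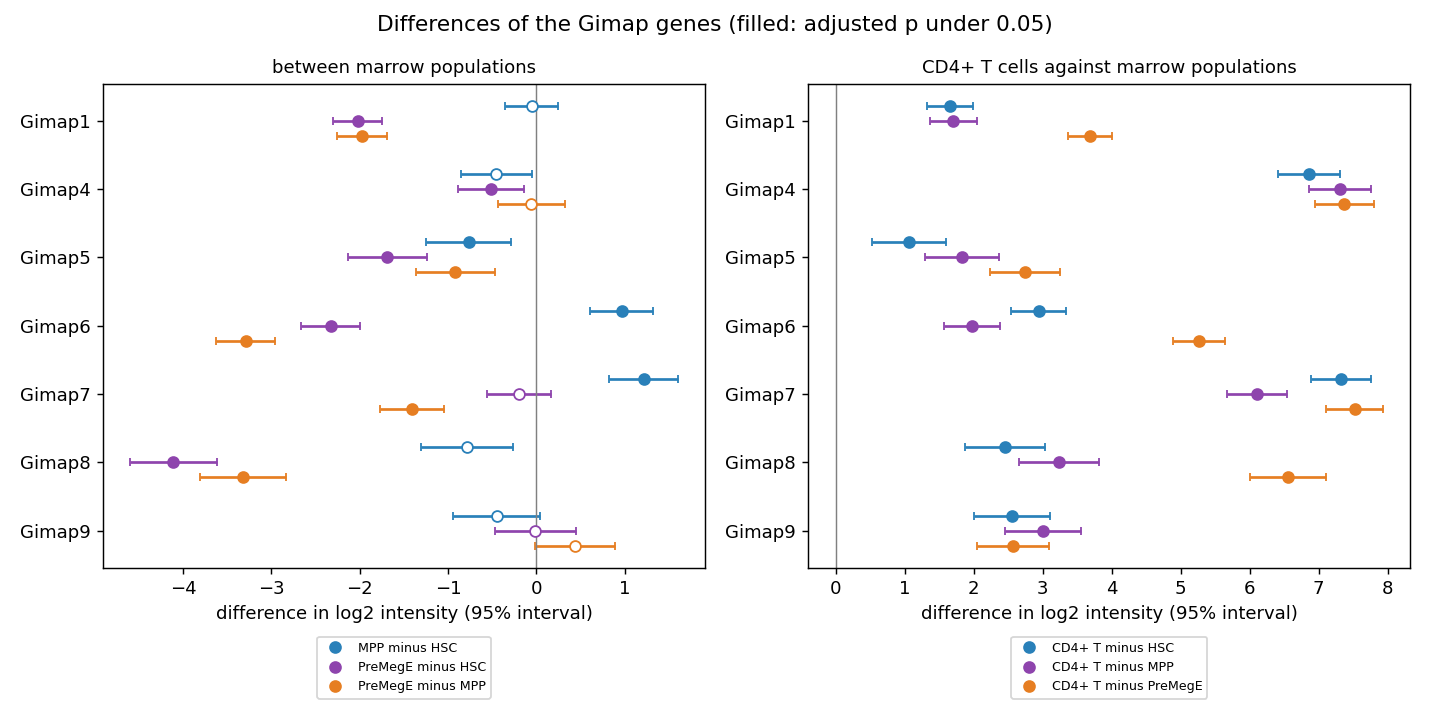
Differences in log2 intensity for each Gimap gene in the 6 population comparisons, with bars showing 95% confidence intervals and filled points those with adjusted p under 0.05. All T cell differences lie to the right of 0, PreMegE differences lie at or left of it except for Gimap9 against MPP, and MPP against HSC falls on both sides.

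The 3 members with a further probe set gave a check within the gene, fitted over all 45037 probe sets. For Gimap6 the second set was at 9.16 and 7.90 in CD4+ T cells, 3.39, 3.17, 3.85 and 2.99 in PreMegE, 6.79, 6.63 and 6.77 in MPP, and 4.75, 4.62 and 6.01 in HSC, the same order as the first. MPP again exceeded HSC, by 1.61 (adjusted p = 0.0177), where 7.42% of all probe sets were called in either direction.

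For Gimap4 the second set, whose name ends in the suffix that Affymetrix gives to probes shared by several transcripts, separated the marrow populations more than the first. It was at 12.48 and 12.73 in CD4+ T cells, 2.89, 2.79, 3.05 and 2.74 in PreMegE, 4.31, 3.45 and 3.91 in MPP, and 4.58, 5.36 and 5.47 in HSC, with no overlap between populations. By it, PreMegE was below HSC by a difference of -2.27 (adjusted p = 1.3e-05), where 20.7% of probe sets were called, below MPP by one of -1.02 (adjusted p = 0.0045), where 26.2% were, and MPP was below HSC by one of -1.25 (adjusted p = 0.0068). Its PreMegE mean of 2.87 was under the lower quartile, so the sizes of both PreMegE differences are not exact. A graded marrow order for Gimap4, HSC over MPP over PreMegE, thus rests on this probe set alone.

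For Gimap7 the second set was at 7.11 and 7.16 in CD4+ T cells, 3.63, 3.14, 3.07 and 3.14 in PreMegE, 3.48, 3.21 and 3.31 in MPP, and 3.31, 3.62 and 3.33 in HSC. It gave the T cell excess but was near the lower quartile in all marrow populations, and MPP and HSC differed by -0.09, which was not called. The MPP rise of Gimap7 therefore rests on the brighter probe set. How far probes of one member bind transcripts of its close relatives was not tested.

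**Figure D3:**
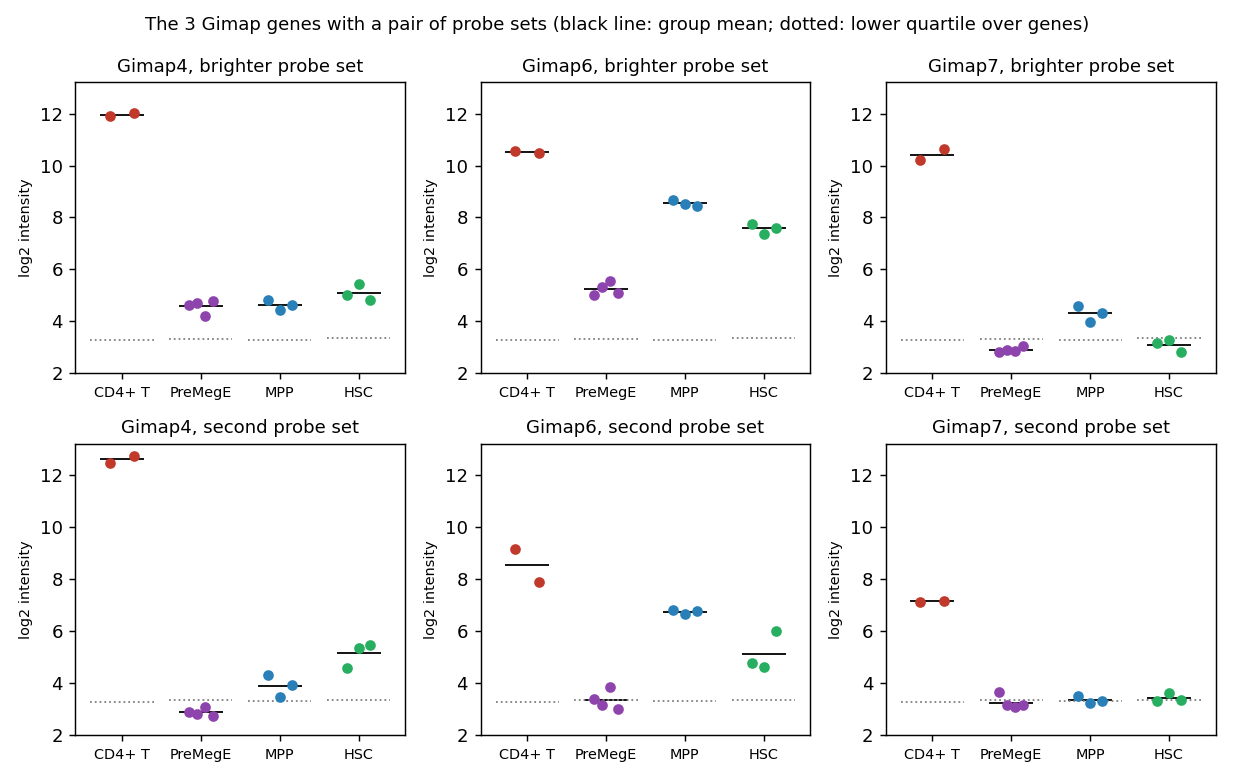
Log2 intensity of both probe sets of Gimap4, Gimap6 and Gimap7 on every array, with each point 1 array and populations ordered CD4+ T, PreMegE, MPP and HSC. Both sets are highest in T cells for all 3 genes; the second Gimap4 set spreads the marrow populations, and the second Gimap7 set does not.

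Across the 10 marrow arrays, which leave out the T cells, Gimap1 and Gimap8 followed each other most closely of the 21 member pairs, with Pearson r = 0.973. Gimap1 and Gimap6 had r = 0.952, Gimap6 and Gimap8 0.894, and Gimap5 and Gimap8 0.890. Gimap9 ran against Gimap7 (r = -0.720) and Gimap6 (r = -0.524). These arrays fall into 3 populations, of which PreMegE came from an earlier study than HSC and MPP. The values therefore describe the population pattern and not variation between animals.

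Of 6388 other genes whose population means span at least 1 log2 unit, those closest to each member over all 12 arrays were listed by Pearson r. Closest to Gimap4 were the T cell transcription factor Bcl11b (0.999), Rflnb (0.998) and Rasgrp1 (0.997), which activates Ras in T cells. Closest to Gimap7 were Pik3r5, Card6 and Ifi209 (each 0.996). Closest to Gimap6 were Kbtbd11 (0.997), the leukocyte actin-binding gene Lsp1 (0.994) and Ms4a6b (0.991). Closest to Gimap1 were Inpp1 (0.991), Calhm6 (0.990) and S100a6 (0.989), and S100a6 also led for Gimap8 (0.978), followed by Paqr7 (0.978) and Spata13 (0.975). Closest to Gimap5 were Abcg3 (0.963), Slc37a1 (0.963) and Abhd6 (0.957), and to Gimap9 Gm15708 (0.991), Cd84 (0.979) and Ms4a4d (0.979). The 2 T cell arrays are far from the rest for most of these genes, so they carry much of each r.

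In the RefSeq gene order on chromosome 6 the members run Gimap8, Gimap9, Gimap4, Gimap6, Gimap7, Gimap1 and Gimap5, with Gimap3 after them. Gimap6, Gimap7, Gimap1 and Gimap5, which follow one another, were all lower in PreMegE than in MPP, and so was Gimap8 at the other end, while Gimap9 and Gimap4 between them were not called. Gimap6 and Gimap7, the members higher in MPP than in HSC, are next to each other. Gimap3, a close relative of Gimap5 that is not among the 7, was at 11.15 and 11.08 in CD4+ T cells, 4.91, 4.92, 4.70 and 4.92 in PreMegE, 5.80, 4.93 and 4.92 in MPP, and 5.33, 5.67 and 5.40 in HSC. It resembled Gimap4, with T cells above HSC by 5.65 and PreMegE below HSC by a difference of -0.60 (adjusted p = 0.0282).

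The genes on either side of the cluster were compared in the same way. Of 16 annotated genes flanking the cluster, 8 on each side, 9 were measured; against HSC, none of the 9 was called higher in T cells and 3 were lower, where 17.0% of all genes were called higher and 20.8% lower. These were Tmem176b (-3.73 ± 0.18, adjusted p = 1.7e-10), Repin1 (-2.87 ± 0.20, adjusted p = 1.3e-08) and Tmem176a (-2.57 ± 0.20, adjusted p = 3.9e-08). Tmem176a and Tmem176b, paired membrane protein genes beyond Gimap3 with 3 other annotated genes between, were also lower in PreMegE than in HSC, by differences of -1.87 (adjusted p = 5.8e-07) and -1.72 (adjusted p = 4.7e-07), and these were the 2 flanking genes called there. Against MPP, 1 of the 9 was higher in T cells, Lrrc61 (0.62, adjusted p = 0.0352), where 15.5% of all genes were. Another 3 were lower, where 3641 of the 18193 genes were. Against PreMegE, 1 of the 9 was higher, Zfp775 (0.87, adjusted p = 0.0298), where 16.3% were. Another 4 were lower, where 3057 of the 18193 genes were. Counts of higher genes this small are near their shares. In MPP against HSC none of the 9 was called by limma, and their median difference was 0.16 against -0.03 over all genes.

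**Figure D4:**
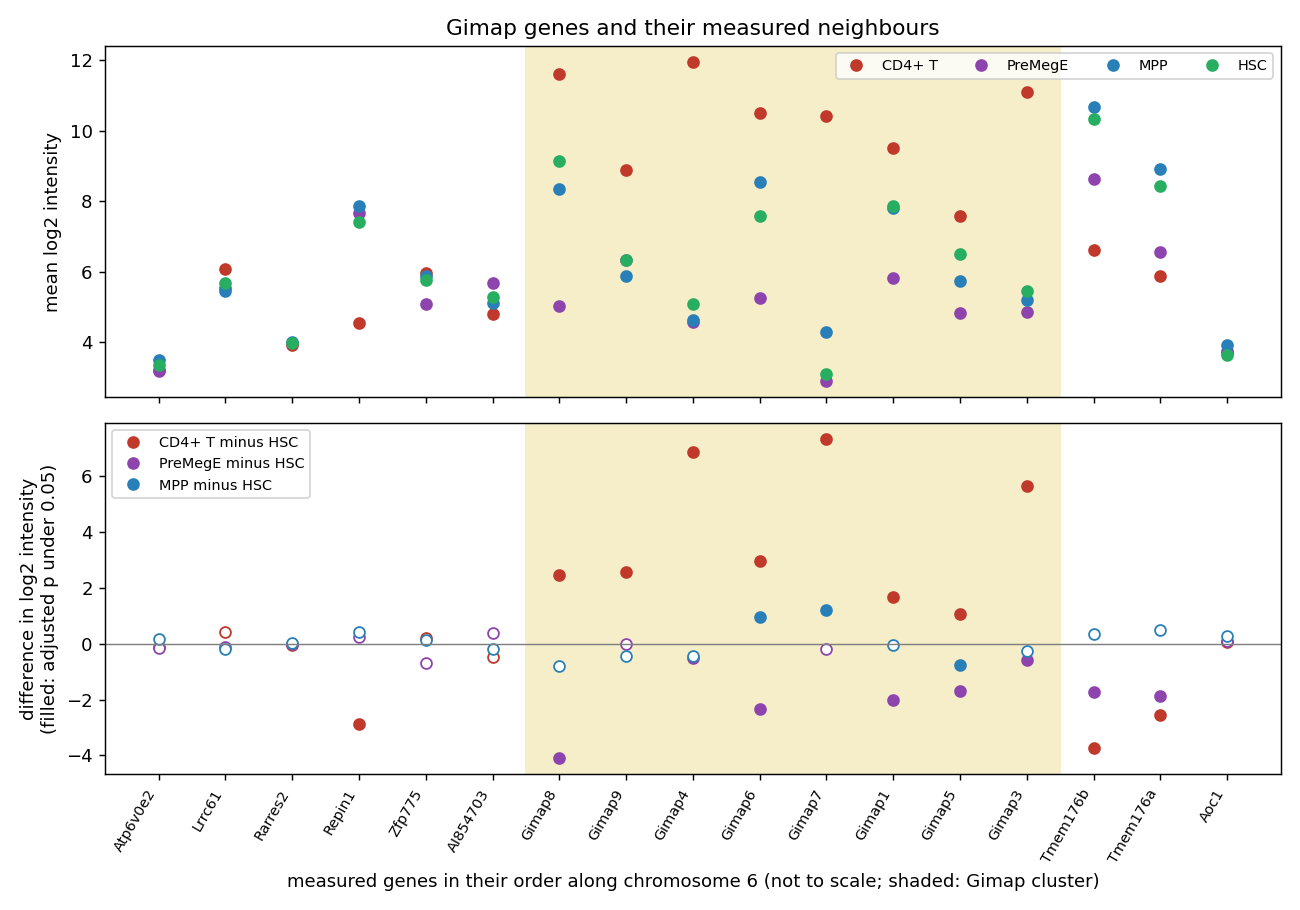
Gimap genes and their measured neighbours in chromosome order, not to scale, with mean log2 intensity per population above and differences from HSC below (filled points have adjusted p under 0.05). T cells are the highest population at all 8 Gimap genes. They are the lowest at Repin1, Tmem176b and Tmem176a, and by smaller gaps at AI854703 and Rarres2. Heights of different genes are not comparable.

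Lists of related genes show which other T cell survival and GTPase genes moved in the same arrays. Their counts are read against the shares of all genes called: 17.0% higher and 20.8% lower in T cells against HSC, 11.9% and 17.0% in PreMegE against HSC, 13.5% and 19.5% in PreMegE against MPP, and 6.38% and 4.93% in MPP against HSC. Of 10 measured genes for naive T cell quiescence and homing, 9 were higher in T cells than in HSC and none lower. They included the lymph node homing receptor Ccr7 (7.87 ± 0.18, adjusted p = 6.3e-14), the transcription factor Lef1 (4.93 ± 0.20, adjusted p = 2.5e-11) and the egress receptor S1pr1 (4.31 ± 0.27, adjusted p = 3.5e-09). In PreMegE against MPP, 5 of the 10 were lower and 2 higher. The lower ones included Klf2, which keeps T cells quiescent (-5.62 ± 0.52, adjusted p = 5.9e-07), and the co-stimulatory receptor Cd27 (-3.10 ± 0.19, adjusted p = 6.6e-09).

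Of 11 measured genes of interleukin-7 receptor signalling, through which resting T cells receive survival signals, 2 were higher and 5 lower in T cells than in HSC. The receptor Il7r itself was 8.29 ± 0.23 higher (adjusted p = 4.3e-13) and the kinase Jak1 2.01 ± 0.29 higher (adjusted p = 3.4e-05), while the kinase gene Pim1 was lower by a difference of -2.20 ± 0.27 (adjusted p = 6.0e-06). In PreMegE against MPP, 6 of the 11 were lower and 2 higher, with Pim1 at -3.35 ± 0.22 (adjusted p = 1.5e-08) and Il7r at -1.95 ± 0.19 (adjusted p = 9.3e-07). In MPP against HSC, 2 were higher and 2 lower, with Il7r at 1.83 ± 0.20 (adjusted p = 2.1e-05).

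Of 14 measured genes of the BCL2 family, which set the threshold for apoptosis, 5 were higher and 4 lower in T cells than in HSC. The pro-apoptotic Bmf was 1.99 ± 0.23 higher (adjusted p = 4.8e-06), and the anti-apoptotic Bcl2l2 was lower by a difference of -2.01 ± 0.31 (adjusted p = 6.3e-05). In PreMegE against HSC, 2 were higher and 5 lower. The lower ones included the anti-apoptotic Bcl2 (-0.94 ± 0.18, adjusted p = 7.6e-04) and Bcl2l1 (-0.88 ± 0.16, adjusted p = 5.0e-04). The pro-apoptotic Bok was also lower (-0.90 ± 0.20, adjusted p = 0.00234), while the pro-apoptotic Bid was 1.06 ± 0.21 higher (adjusted p = 0.00114). The medians over the 14 were -0.04 in T cells against HSC and -0.05 in PreMegE against HSC, near those of all genes.

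The interferon-inducible GTPases, which act against microbes inside cells, are a separate family. Of their 11 measured genes, 7 were higher and none lower in T cells than in HSC, including Gbp6 (2.11 ± 0.31, adjusted p = 5.1e-05) and Igtp (2.02 ± 0.19, adjusted p = 3.8e-07). In PreMegE against MPP, 7 of the 11 were higher and 2 lower, with a median of 0.76. Irgm1 was 1.96 ± 0.18 higher (adjusted p = 6.2e-07), while Gbp6 was lower by a difference of -3.50 ± 0.26 (adjusted p = 5.7e-08). The Gimap median in the same comparison was -1.41. Of 11 measured septins, cytoskeletal GTP-binding proteins, 3 were higher and 2 lower in T cells than in HSC, and 4 were lower and none higher in PreMegE than in HSC; the T cell counts are near the shares of all genes. No difference between these lists and the Gimap genes was tested.

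Marker lists of other lineages give the setting of the marrow differences. Over 10 markers of lymphoid-primed progenitors, the summed intensity was 1920 to 2367 in PreMegE, 8975 to 9947 in MPP and 1173 to 1558 in HSC, and 9 of the 10 rose in MPP against HSC. The members Gimap6 and Gimap7 were higher in MPP, as this list was, while Gimap5 was lower. Endothelial cells are another known site of Gimap expression; over 10 endothelial markers the sum was 243 and 262 in CD4+ T cells, 580 to 686 in PreMegE, 953 to 1073 in MPP and 908 to 1013 in HSC. The defining endothelial gene Cdh5 was between 2.86 and 3.69 on all 12 arrays, near the lower quartile. Some other genes of that list had higher levels. In PreMegE against HSC, 5 of the 10 were lower and none higher. Esam was at a mean of 4.52 in PreMegE against 7.72 in HSC (-3.19, adjusted p = 1.4e-09), and Tie1 at 4.09 against 6.10 (-2.02, adjusted p = 4.7e-07). Eng did not fall there, with 8.11 in PreMegE against 7.92 in HSC. In PreMegE against MPP, 5 of the 10 were lower and 2 higher. Egfl7 was at 6.83 in PreMegE against 8.91 in MPP (-2.09, adjusted p = 1.9e-07), whereas Tek was at 6.70 in PreMegE against 5.61 in MPP. The part of lymphoid priming and of endothelial-type genes in the marrow differences of the Gimap genes was not tested.

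**Figure D5:**
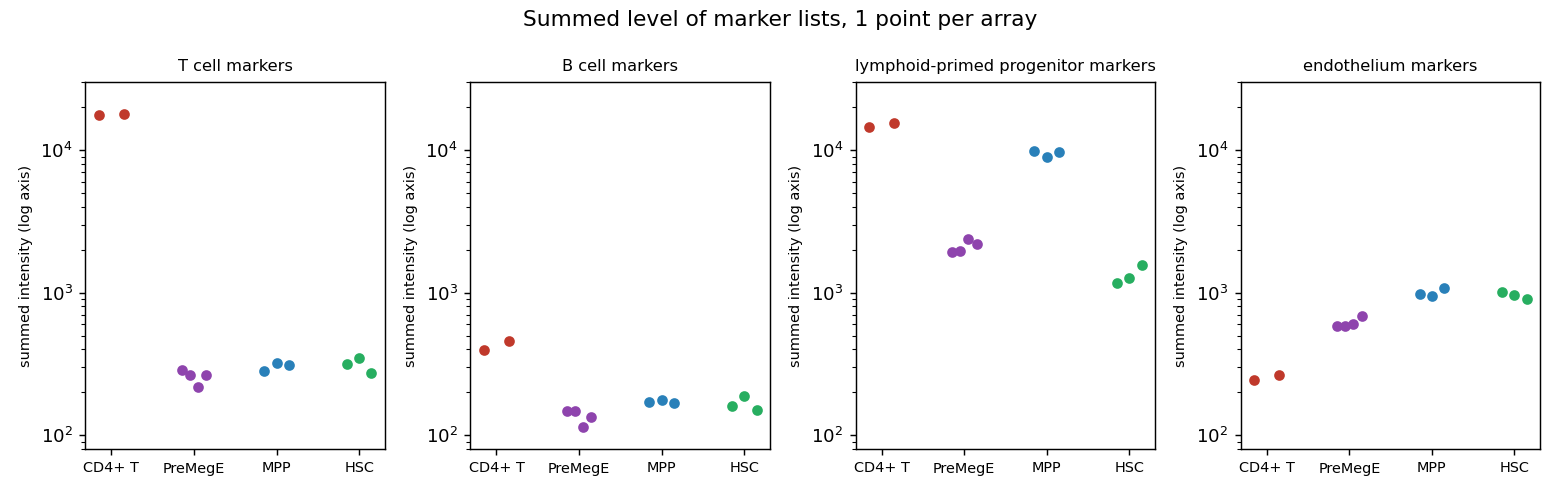
Summed intensity of cell type marker lists on every array, on a log axis, with each point 1 array and populations ordered CD4+ T, PreMegE, MPP and HSC. The T cell sum is 17676.7 and 18044.2 on the T cell arrays and no more than 349 on any marrow array, and the lymphoid-primed sum is higher in MPP than in HSC or PreMegE.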

How the data were processed

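Total RNA of 12 sorted samples was read on Affymetrix arrays. The deposited intensity values are linear; per the submitters' processing notes they were made with RMA, with its version, probe annotation and genome build not given in the sources used here. Array medians lay between 14.4 and 15.6, and no read depth applies: the number of arrays limits the precision. From the deposited values, log2 was taken and 64 control probe sets were left out, leaving 45037. Of these, 34945 carried a single symbol in the platform annotation, 932 several and 9160 none; 34741 of the single-symbol sets matched RefSeq (GRCm38.p6) by gene ID, with 0 symbols changed. The probe set with the highest mean over 12 arrays stood for each of 18193 genes. limma 3.58.1 in R 4.3.3 fitted a mean per population over all 12 arrays (lmFit, eBayes, two-sided), with Benjamini-Hochberg adjustment over all genes and calls at 0.05; a separate fit covered all probe sets. The fit was tested on simulated data. Groups came from the sample labels.

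All 7 Gimap genes and all their single-symbol probe sets were named. From each list, up to 4 called genes with the largest difference per comparison could be named, and for each member the 3 most correlated genes. The members and lists were chosen with earlier results of these data known. Alternatives were another probe set per gene, their mean, quantile and cyclic loess normalisation, low genes left out, a floor at an intensity of 16, only the arrays compared, a replicate block, PreMegE replicates 3 and 4 averaged (the description of the fourth repeats the number of the third; their correlation over genes was 0.989, within the PreMegE range of 0.984 to 0.992, so both were kept), HSC replicate 1 alone, and each array left out. Protein sequences were not used here.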

Additional observations from a re-analysis of the deposited data

Results flagged for a closer look

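On the dimmer Gimap7 probe set, 1 of the 4 PreMegE arrays lay far from the others. Replicate 1 was at 3.63 log2 and the other 3 lay between 3.07 and 3.14, so that the gap was 0.876 of the group's range, above Dixon's critical value at the 95% level for 4 samples. Of the 10 Gimap probe sets checked this was 1, and chance flags about 1 group in 20. All 4 values are near the lower quartile of PreMegE over genes, 3.32, and on the brighter Gimap7 probe set PreMegE replicate 1 was the lowest of the 4, at 2.81.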

How the results depend on the processing

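Over 900 Gimap values recomputed, 847 kept their direction and side of the threshold, 21 lost a call, 19 gained one, 1 came to 0 and 12 changed sign, of which 11 were called on neither side. The called one was Gimap7, which in MPP against HSC was -0.089 on its other probe set (adjusted p = 0.867). The others were Gimap9 in PreMegE against HSC (0.105 under quantile normalisation, 0.031 under cyclic loess, 0.034 with the replicate block, -0.134 to 0.063 with an array left out), Gimap4 in PreMegE against MPP (0.089, 0.033 under the same normalisations, -0.151 to 0.066 with an array left out) and Gimap1 in MPP against HSC (-0.102 to 0.0051 with an array left out). All 7 members stayed higher in T cells than in each marrow population under every alternative run. In MPP against HSC, members called numbered 1 with a floor and 1 with HSC replicate 1 alone, and 2 to 4 with an array left out; genes called were 779 with HSC replicate 1 alone and 1280 to 2341 with an array left out, lowest without MPP replicate 3. PreMegE against HSC had 3395 genes called with HSC replicate 1 alone. On the next brightest probe set, where fewer genes were tested (9010), genes called were 686 in MPP against HSC, 2020 in PreMegE against HSC, 2611 in PreMegE against MPP, and 2905, 2856 and 2482 in T cells against HSC, MPP and PreMegE. Under quantile normalisation, genes higher and lower numbered 3283 and 3120 in PreMegE against MPP (2454 and 3550 in the main values), 2902 and 2809 in PreMegE against HSC (2167 and 3088), and 3695 and 3452 in T cells against HSC (3096 and 3783). In PreMegE against MPP, Gimap9 was then called higher (0.62, adjusted p = 0.0225), as under cyclic loess (0.54, adjusted p = 0.0425) and without either T cell array (adjusted p = 0.0421). Gimap8 in MPP against HSC was called lower under quantile normalisation (-0.88, adjusted p = 0.0227) and cyclic loess (-0.87, adjusted p = 0.0336), and Gimap4 in PreMegE against HSC lost its call under both (adjusted p = 0.147 and 0.0764). With a floor, Gimap7 in MPP against HSC was 0.31 (adjusted p = 0.289) and in PreMegE against MPP -0.31 (adjusted p = 0.142); in PreMegE against MPP it was also short of a call on its other probe set, at -0.089 (adjusted p = 0.732). Causes were not tested.

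The same replicate numbers appear in several populations, and the labels do not say whether a number marks a shared litter or day. Of 15 same-numbered pairs, 3 had correlated deviations above 0.1 (range -0.119 to 0.413). Of 38 pairs with different numbers, 4 did (range -0.453 to 0.439). Of 11 arrays with a same-numbered partner, 6 correlated best with their own number. Whether the numbers pair the samples cannot be told from these values, and the main fit used no pairing. With the replicate number as a block, 2153 genes were called in MPP against HSC and 5034 in PreMegE against HSC, and members called stayed at 3 and 5.

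Low intensities limit Gimap7 in PreMegE and HSC, where its means lie under the lower quartile over genes. The second Gimap4 probe set is limited in the same way in PreMegE.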

Other observations

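Neutrophil and immunoglobulin transcripts varied between arrays of 1 population. Ngp, a neutrophil granule gene, was at 11.01 in HSC replicate 2 and at 8.20 and 7.84 in HSC replicates 1 and 3. Ighm, the immunoglobulin mu heavy chain gene, was at 9.35 in PreMegE replicate 1 and between 3.57 and 4.36 in the other 3 PreMegE arrays, and at 9.04 in HSC replicate 2 against 5.04 and 4.71 in HSC replicates 1 and 3. Of the HSC arrays, replicate 2 was lowest in Gimap1 (7.82), Gimap6 (7.36), Gimap8 (8.67) and Gimap9 (6.31), and highest in Gimap4 (5.42), Gimap5 (6.63) and Gimap7 (3.27).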
